A study of Mus musculus with 14 samples.

Results

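Inflammasomes are protein complexes that macrophages assemble in the cytosol when a sensor meets a microbial product or a sign of cell damage. The sensor recruits caspase-1, directly or through the adaptor ASC, and the caspase matures interleukin-1 beta and interleukin-18 and cuts gasdermin D, whose freed end forms pores in the membrane and leads to the lytic death called pyroptosis. Macrophages keep some of these proteins ready and make others, above all NLRP3 and the lipopolysaccharide-binding caspase encoded by mouse Casp4, after a priming signal that acts through NF-kappa B or interferons. The genes described here are 10 of this pathway: the sensors Nlrp3, Nlrc4, Nlrp1b, Naip2 and Naip5, the adaptor gene Pycard, the caspase genes Casp1 and Casp4, and the gasdermin genes Gsdmd and Gsdme. They were chosen by name, with earlier results of these data known. All 10 were found among the 47937 genes of the table and passed the filter on low counts.

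Polyadenylated RNA was sequenced from macrophages that had been grown out of mouse bone marrow, all labelled WT. Of 14 libraries, 6 came from untreated cells, 5 from cells exposed for 3.5 h to mast cell supernatant and 3 from cells exposed for 3.5 h to the supernatant of mast cell intracellular traps (trap supernatant), the labels giving neither the dose nor how the supernatants were made. Each library carries 1 of 3 batch labels, which do not say what a batch is. Batch 1 holds untreated replicates 1 and 4, mast cell supernatant replicates 1 and 4 and trap replicate 1; batch 2 holds untreated replicates 2 and 5, mast cell supernatant replicate 2 and trap replicate 2; batch 3 holds untreated replicates 3 and 6, mast cell supernatant replicates 3 and 5 and trap replicate 3. Whether replicates are separate cultures or mice is not stated, and the p-values then measure only a spread between libraries that may be technical.

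Total counts ran from 11729073 to 22720419 per library, and the 10 genes had between 163 and 4049 counts each in every library. Levels are given as CPM, counts per 1000000 counts of a library after TMM scaling. The libraries of batch 3 stood apart in a defining macrophage marker: Lyz2, the gene of macrophage lysozyme, had 1 to 2 counts in each of its 5 libraries, or at most 0.17 CPM, and 4719.9 to 10885.8 CPM in the 9 libraries of batches 1 and 2, although all carry the same genotype label. The other macrophage markers were present there, with Csf1r at 2393.2 CPM or more and Adgre1 at 1867.0 CPM or more. A set of 5 collagen and smooth muscle genes, chosen after the data were seen, summed to 205.7 to 244.5 CPM in batch 2 and to 13.8 to 35.9 CPM in the other batches. The 10 mast cell markers summed to 5.81 to 9.05 CPM in untreated libraries, with Mcpt4 and Tpsb2 at 0 in all of them, to 80.8 to 1344.6 CPM with mast cell supernatant and to 82.3 to 1927.0 CPM with trap supernatant. In such bulk RNA the source of a transcript is not known, so the mast cell transcripts are not assigned to the macrophages here. More cells of a type and more RNA per cell cannot be told apart either. Responses are therefore given by batch, and the comparisons of groups are also given without batch 3.

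In untreated macrophages Casp1 and Gsdmd stood highest per length of exon. Per kilobase of exon, counting every annotated exon base, Casp1 had 87.1 ± 18.5 CPM (SD, n = 6), Gsdmd 50.3 ± 2.52 and Nlrp3 41.5 ± 4.17. Casp4 followed with 23.3 ± 4.75 CPM per kilobase and Naip2 with 17.5 ± 2.99. Pycard lay at 12.5 ± 1.6, Naip5 at 7.16 ± 1.0, Nlrc4 at 5.88 ± 1.19, Nlrp1b at 5.31 ± 1.06 and Gsdme at 1.7 ± 0.17 CPM per kilobase. The per-library ranges of Gsdmd and Nlrp3 overlapped, as did those of Casp4 and Naip2 and those of Naip5, Nlrc4 and Nlrp1b, so the order within these sets is not fixed beyond the spread. The order also depended on the length used: over the principal transcript alone Casp4 reached 60.1 ± 12.3 CPM per kilobase, above Nlrp3 at 41.8 ± 4.21, and Gsdme 8.65 ± 0.866. Reads of the near-identical Naip genes and of the Nlrp1 family can be divided between copies in counting, which makes the levels of Naip2, Naip5 and Nlrp1b uncertain. Gsdme and Pycard overlap genes on the opposite strand (Mpp6 and Gm45205). Reads of these can be kept apart only if the counting used strand, which is not given in the sources used here. Nlrc4 and Naip2 overlap processed pseudogenes on the same strand (CT033749.1 and Gm18413), from which strand would not keep reads apart.

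**Figure D1:**
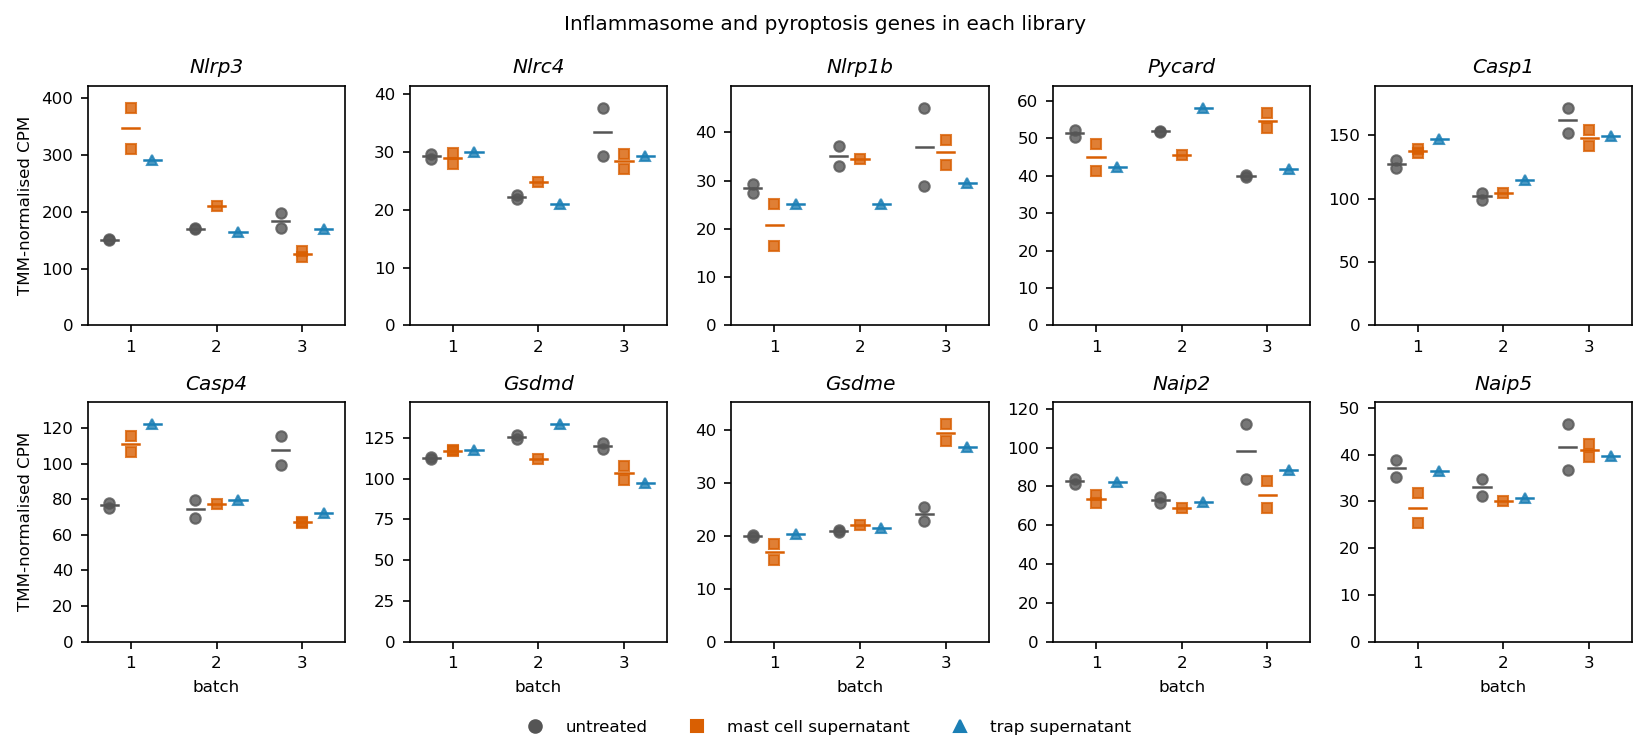
TMM-normalised CPM (vertical axes, starting at 0) of the 10 genes in each of the 14 libraries, by batch (horizontal axes); each point is 1 library and each short line the mean of a group in a batch. Nlrp3 and Casp4 lie above untreated with both supernatants in batch 1, and Gsdme does so in batch 3.

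Taken over all batches, neither supernatant moved any of the genes past the threshold. Of the 10 genes, 0 were called for trap supernatant against untreated (1.72% of the 13061 genes tested were called) and 0 for mast cell supernatant against untreated (background 4.79%), by edgeR's quasi-likelihood F test with batch as a term and a Benjamini-Hochberg adjusted p under 0.05. DESeq2 and limma-voom also called 0. At an unadjusted p under 0.05 there were 0 of the 10 for trap supernatant, where 12.8% of all genes reached it, and 1 for mast cell supernatant (19.1% of all genes), Naip2, a sensor gene of the NAIP family: its log2 difference was -0.22 ± 0.07 (SE; adjusted p = 0.102). The medians of the 10 log2 differences were -0.03 and -0.06, beside -0.01 and -0.01 over all genes.

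The nominal 95% intervals describe a single shift fitted to all batches. They use the normal quantile and are narrower than the F test allows. That of Nlrp1b for trap supernatant, -0.65 to -0.01, was wholly negative although the F test gave an unadjusted p of 0.0667. For Nlrp3, Casp4 and Gsdme the response differed between batches, as given below. Their intervals against untreated therefore do not bound a shift common to all batches. For mast cell supernatant, the interval of the log2 difference ran from -0.11 to 0.12 for Casp1 and from -0.37 to -0.08 for Naip2. It was wide for Nlrp3, at -0.21 to 0.82 around 0.3 ± 0.26, and for Casp4, at -0.43 to 0.32 around -0.06 ± 0.19. For trap supernatant the interval of Nlrp3 was -0.36 to 0.8 around 0.22 ± 0.3, and Nlrp1b had the largest difference in size, -0.33 ± 0.16 (adjusted p = 0.427). Trap against mast cell supernatant gave 0 calls among the 10 genes and 0 among all genes tested (background 0%); at an unadjusted p under 0.05 there were 0 of the 10 and 569 of all genes, and DESeq2 called 11 genes and limma-voom 0, none of them among the 10. The difference between the supernatants was -0.08 for Nlrp3 (interval -0.69 to 0.53) and 0.11 for Casp4 (-0.34 to 0.56). Without batch 3 the log2 differences under mast cell supernatant became 0.81 for Nlrp3 (adjusted p = 0.128), 0.33 for Casp4 (0.15) and -0.1 for Gsdme (0.6), and under trap supernatant 0.46 for Nlrp3 (0.551), 0.4 for Casp4 (0.227) and 0.04 for Gsdme (0.91), with 0 of the 10 called for either (background 6.95% and 1.97%).

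The batches differed in how 3 of the genes responded. A test of whether the response to either supernatant differed between batches (a batch by supernatant term with 2 degrees of freedom) called Casp4 (adjusted p = 0.000148), Nlrp3 (0.00531) and Gsdme (0.00726), or 3 of 10 against a background of 5.36%. Because the genes were chosen with earlier results of these data known, their share is not an independent comparison with the background. Pycard (adjusted p = 0.145), Gsdmd (0.221) and Casp1 (0.244) did not pass, but had an unadjusted p under 0.05, as had 6 of the 10 in all, beside 17.8% of all genes. Casp4, Nlrp3 and Gsdme were also called by DESeq2, by limma-voom and with each of the 14 libraries left out in turn; over all these alternatives their adjusted p ran up to 0.00369, 0.0416 and 0.0415. The batches differ in more than 1 recorded feature, so which feature goes with the response cannot be told apart.

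**Figure D2:**
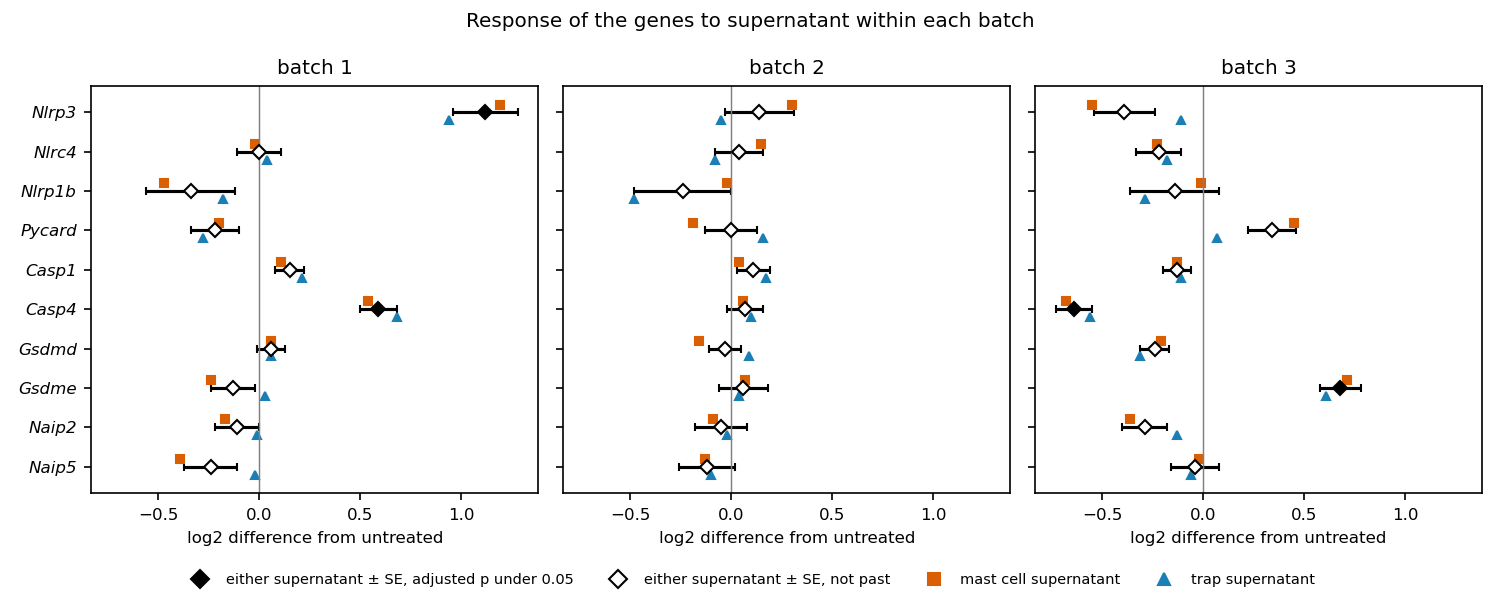
Log2 difference from untreated (horizontal axes) of the 10 genes in batches 1, 2 and 3; diamonds are the response to either supernatant from edgeR with its SE, filled where the adjusted p was under 0.05, squares mast cell and triangles trap supernatant as differences of mean log2 CPM. Nlrp3 and Casp4 stand to the right in batch 1, no diamond is filled in batch 2, and in batch 3 Casp4 stands to the left and Gsdme to the right.

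Nlrp3 encodes the sensor that answers to potassium loss, crystals and pore-forming toxins, and lies on chromosome 11 at 59541568 to 59566956 (GRCm38, plus strand; ENSMUSG00000032691). Its promoter is shown because its RNA rose together with that of Casp4 in batch 1. RefSeq gives it a pair of starts on GRCm38.p6. The capitals below mark a kappa B match (GGG and CC with any 5 bases between) before the first start (chr11:59541319-59541567, plus strand) and, before the second start further along the gene (chr11:59542436-59542685), 3 matches to the PU.1/ETS core GAGGAA, of which 1 reads TTCCTC because it lies on the other strand.
Nlrp3, first start: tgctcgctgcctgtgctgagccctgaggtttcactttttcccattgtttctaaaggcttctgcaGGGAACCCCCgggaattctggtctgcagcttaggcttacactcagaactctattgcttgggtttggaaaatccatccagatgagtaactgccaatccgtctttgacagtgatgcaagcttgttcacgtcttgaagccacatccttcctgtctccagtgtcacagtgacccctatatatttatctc
Nlrp3, second start: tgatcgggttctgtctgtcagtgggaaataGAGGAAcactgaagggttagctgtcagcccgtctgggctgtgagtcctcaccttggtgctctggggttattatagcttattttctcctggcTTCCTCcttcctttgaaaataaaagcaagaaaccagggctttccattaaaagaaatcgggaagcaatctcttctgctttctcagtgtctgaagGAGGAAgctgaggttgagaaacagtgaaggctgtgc
The kappa B match lies 186 to 177 bases before the first start. On both strands, 45.8% of 32851 RefSeq windows of the same 250 bases hold at least 1 such match and 23.25% hold a GAGGAA, so a single match is common.

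In batch 1, Nlrp3 read 150.5 and 151.4 CPM in untreated replicates 1 and 4, 310.7 and 382.5 CPM in mast cell supernatant replicates 1 and 4, and 290.4 CPM in trap replicate 1. All 3 treated libraries lay far above both untreated ones. The rise was 2.17-fold (log2 1.12 ± 0.16; adjusted p = 0.00131), and it was the largest of the 10 genes in any batch. In batch 2, untreated replicates 2 and 5 read 168.8 and 171.2 CPM, mast cell supernatant replicate 2 read 209.3 CPM and trap replicate 2 read 164.3 CPM, so the treated libraries lay on either side of the untreated ones (log2 0.14 ± 0.17; adjusted p = 0.92). In batch 3, untreated replicates 3 and 6 read 196.8 and 170.8 CPM, mast cell supernatant replicates 3 and 5 read 130.2 and 120.7 CPM and trap replicate 3 read 169.3 CPM. Every treated library of batch 3 was below both untreated ones, trap replicate 3 by little, and the difference of -0.39 ± 0.15 did not pass (adjusted p = 0.153). The response in batch 3 was lower than that in batch 1 by log2 -1.51 ± 0.22 (adjusted p = 0.00155), while the batch 2 response minus that of batch 1 was -0.98 ± 0.23 and did not pass (0.102). Of the 10 genes, 2 were called in batch 1 (background 7.56%), 0 in batch 2 (background 1.19%, and 0 at an unadjusted p under 0.05, beside 10.5% of all genes) and 2 in batch 3 (background 8.41%).

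The treated libraries of batch 1 held the fewest mast cell transcripts, with a marker sum of 80.8 to 107.3 CPM against 221.4 to 1927.0 CPM in the treated libraries of the other batches. Their neutrophil markers, a list of 10, summed to 98.2 to 144.0 CPM against 79.9 to 83.6 CPM in the untreated libraries of batch 1. In batch 2 the treated libraries lay lower, at 68.4 and 72.8 CPM against 85.7 to 105.1 CPM untreated. The same held in batch 3, at 182.3 to 213.3 CPM against 222.5 to 226.0 CPM untreated. Whether these had a part in the responses of the 10 genes was not tested.

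Casp4 encodes the protease long called caspase-11, which binds lipopolysaccharide in the cytosol and cuts gasdermin D without a sensor complex. It lies on chromosome 9 at 5308828 to 5336783 (plus strand; ENSMUSG00000033538), next to Casp1 at 5298517 to 5307265. The sequence before its first RefSeq start is shown for comparison with that of Nlrp3 (chr9:5308599-5308827, plus strand, GRCm38.p6), with kappa B matches in capitals.
Casp4: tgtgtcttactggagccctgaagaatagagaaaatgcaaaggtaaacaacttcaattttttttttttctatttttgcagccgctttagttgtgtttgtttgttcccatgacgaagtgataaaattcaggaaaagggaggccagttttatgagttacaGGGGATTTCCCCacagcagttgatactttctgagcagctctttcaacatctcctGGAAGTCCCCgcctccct
The first run of capitals, 93 to 82 bases before the start, holds 3 overlapping matches over both strands, and the second lies 39 to 30 bases before it; another match falls 14 to 5 bases before it, past the part shown. At least 3 separate matches were found in 6.09% of all windows. Of the 9 members with a window in the table, Nlrp3, Casp1, Casp4, Gsdme and Naip5 hold at least 1 kappa B match. None of the 9 holds the interferon response element, a GAAA repeated after any 2 bases (2.98% of all windows), or the AP-1 motif TGANTCA (6.75%) in the 250 bases, which says only that these letters are not there.

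In batch 1, Casp4 read 78.1 and 75.1 CPM in the untreated libraries (replicates 1 and 4), 106.7 and 115.6 CPM with mast cell supernatant and 122.5 CPM with trap supernatant. The treated libraries were all above the untreated ones, and the rise was 1.5-fold (log2 0.59 ± 0.09; adjusted p = 0.000433). In batch 2 the untreated libraries read 79.7 and 69.6 CPM, mast cell supernatant 77.5 CPM and trap supernatant 79.6 CPM, all within the untreated range (log2 0.07 ± 0.09; adjusted p = 0.923). In batch 3 the order was turned round. Untreated replicates 3 and 6 read 99.4 and 115.8 CPM, mast cell supernatant replicates 3 and 5 read 67.1 and 66.9 CPM and trap replicate 3 read 72.5 CPM, all treated libraries below the untreated ones. Casp4 fell by 0.64 ± 0.09 on the log2 scale (adjusted p = 0.000179). Both supernatants gave the same sign within these batches, 0.54 and 0.68 in batch 1 and -0.68 and -0.56 in batch 3 (mast cell and trap). The responses of batches 3 and 1 differed by -1.23 ± 0.12 (adjusted p = 3.26e-05), the smallest p of the 10 genes.

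Gsdme encodes a gasdermin that is opened by the apoptotic caspase-3 and so turns apoptosis into lysis. It lies on chromosome 6 at 50188888 to 50263862 (minus strand; ENSMUSG00000029821). In batch 3 it read 25.4 and 22.9 CPM in untreated replicates 3 and 6, 41.2 and 37.9 CPM with mast cell supernatant and 36.9 CPM with trap supernatant. The groups did not overlap, and Gsdme rose 1.6-fold (log2 0.68 ± 0.1; adjusted p = 0.000674). In batch 1 it read 20.1 and 19.7 CPM untreated, 18.5 and 15.4 CPM with mast cell supernatant and 20.4 CPM with trap supernatant, and in batch 2 it read 21.1 and 20.7 CPM untreated, 22.0 CPM with mast cell and 21.5 CPM with trap supernatant. Mast cell supernatant replicate 4 was the lowest of all libraries, the batch 2 values lay close together, and neither batch passed (log2 -0.13 ± 0.11 and 0.06 ± 0.12; adjusted p = 0.516 and 0.959). The response in batch 3 exceeded that in batch 1 by 0.81 ± 0.15 (adjusted p = 0.00256). Batch 3 is also the batch nearly without Lyz2 transcripts, and the part of that and of its other differences in the rise of Gsdme cannot be told apart.

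Over the 10 genes, the batch 3 response differed from that of batch 1 in 3 (background 8.67%): Nlrp3 and Casp4 were lower and Gsdme higher in batch 3. The batch 2 response differed from that of batch 1 in 0 (background 0.521%; 2 at an unadjusted p under 0.05, Nlrp3 and Casp4, beside 10.5% of all genes). When batch 3 was left out of the fit, Casp4 passed in that comparison (-0.51, adjusted p = 0.0228) and Nlrp3 did not (0.066), in a fit that called 235 of 13059 genes there (1.8%) in place of 68. Between batches 3 and 2, edgeR called 0 of the 10 and 0 of all genes (background 0%); at an unadjusted p under 0.05 there were Nlrp3, Casp4, Gsdme and Casp1 among the 10 and 1236 of all genes, and DESeq2 and limma-voom were not run on this contrast. Batch 2 had only 2 treated libraries.

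**Figure D3:**
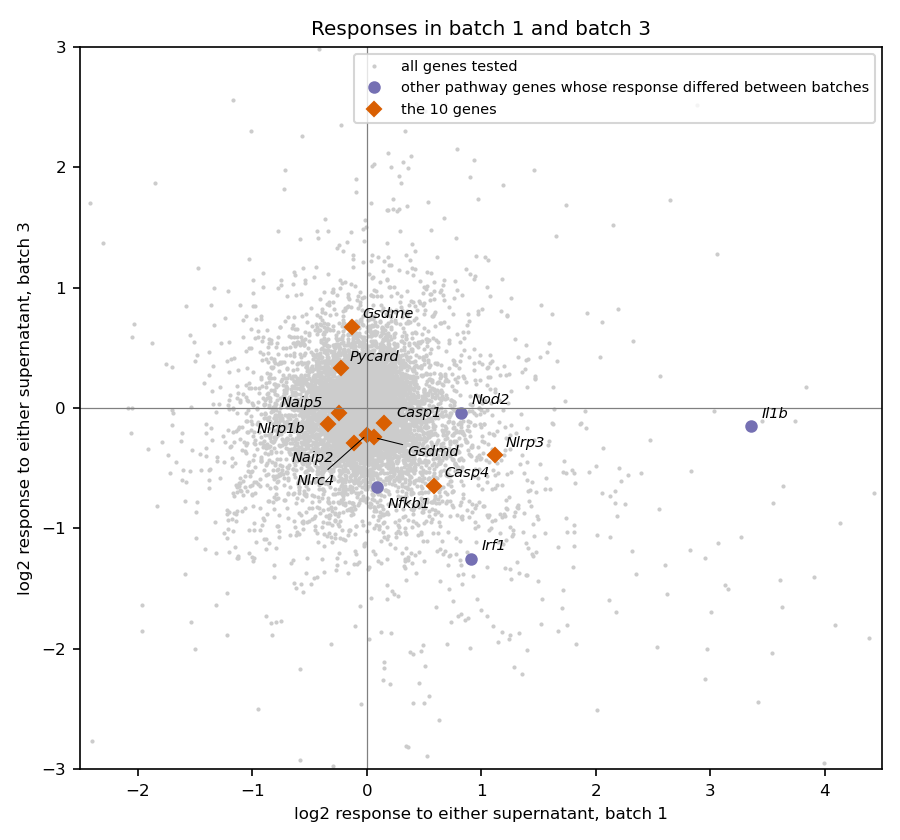
Log2 response to either supernatant in batch 1 (horizontal axis) and in batch 3 (vertical axis) for the genes tested (grey; 73 genes lie outside the axes), the 10 genes (diamonds) and the other pathway genes whose response differed between batches (circles). Nlrp3, Casp4 and Irf1 lie to the lower right, risen in batch 1 and negative in batch 3, and Gsdme lies at the top of the 10.

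The remaining pathway members moved less. Pycard, which encodes the ASC adaptor that joins sensors to caspase-1 (chromosome 7, 127989708 to 127993867, minus strand), read 40.1 and 39.7 CPM in the untreated libraries of batch 3, 56.8 and 52.6 CPM there with mast cell supernatant and 41.8 CPM with trap supernatant. The mast cell supernatant libraries stood clear of the others, but the response to either supernatant did not pass (0.34 ± 0.12; adjusted p = 0.101). Its response in batch 3 minus that in batch 1 was 0.56 ± 0.17 and missed the threshold (adjusted p = 0.0509); without batch 2 in the fit it passed (0.0458). Without trap replicate 3 the batch by supernatant term of Pycard passed as well (adjusted p = 0.0186), as it did with no filter on low counts (0.013).

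Casp1, the inflammasome protease gene, stayed between 99.3 and 171.7 CPM over all libraries. Within each batch the mast cell and trap differences from untreated were small, at 0.11 and 0.21 in batch 1, 0.04 and 0.17 in batch 2, and -0.13 and -0.11 in batch 3, none of the batch responses passing (adjusted p = 0.253, 0.785 and 0.333). Gsdmd, the gene of the pore former itself (chromosome 15, 75862327 to 75867408, plus strand), was the steadiest of the 10, its highest library of 133.7 CPM being 1.38 times its lowest of 97.1 CPM. In batch 3 it read 122.2 and 118.1 CPM untreated, 107.9 and 99.4 CPM with mast cell supernatant and 97.1 CPM with trap supernatant. The treated libraries lay below the untreated ones there, by -0.24 ± 0.07, with an adjusted p of 0.0531.

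The NAIP-NLRC4 branch, in which Naip2 and Naip5 bind bacterial secretion-rod protein and flagellin and Nlrc4 assembles on them, showed no response that passed in any batch. Nlrc4 (chromosome 17, 74425438 to 74459142, minus strand) ranged from 21.9 to 37.6 CPM untreated with a median of 29.0, from 24.7 to 29.8 CPM with mast cell supernatant and from 21.0 to 30.0 CPM with trap supernatant. Naip2 (chromosome 13, 100144063 to 100202092) ranged from 71.6 to 112.3 CPM with a median of 82.6 untreated, from 68.8 to 82.7 CPM with mast cell supernatant and from 72.2 to 88.7 CPM with trap supernatant. Its neighbour Naip5 (100211739 to 100246323) ranged from 31.2 to 46.6 CPM with a median of 36.1, from 25.3 to 42.2 CPM and from 30.8 to 39.7 CPM. The groups overlapped for all 3 genes. Within batches, the Naip2 difference was negative for both supernatants everywhere, from -0.36 to -0.01, and that of Naip5 from -0.39 to -0.02. Both supernatants are set against the same untreated libraries of a batch, so these signs are not independent. In batch 3, Naip2 in trap replicate 3 (88.7 CPM) lay between untreated replicates 3 and 6 (83.8 and 112.3 CPM).

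Nlrp1b encodes a sensor that is kept in check by the peptidases DPP8 and DPP9 and is set off when its amino end is degraded, in some mouse strains by anthrax lethal factor. It lies on chromosome 11 at 71153102 to 71230733 (minus strand) and ranged from 27.5 to 45.1 CPM untreated with a median of 31.2, from 16.5 to 38.5 CPM with mast cell supernatant and from 25.1 to 29.5 CPM with trap supernatant. Its lowest library was mast cell supernatant replicate 4. All 6 within-batch differences were negative, from -0.48 to -0.01, and none of the batch responses passed (adjusted p = 0.413, 0.879 and 0.776). The supernatants share the untreated libraries of a batch, so the 6 are not independent. In batch 3 the treated libraries (29.5 to 38.5 CPM) lay within the untreated range of 28.9 to 45.1 CPM.

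Before any treatment, 4 of the 10 genes differed between batches, close to the background of 33.6%: Casp1 (adjusted p = 2.46e-05), Casp4 (0.000344), Nlrc4 (0.00307) and Naip2 (0.0401). Untreated Casp1 averaged 127.2, 102.0 and 161.9 CPM in batches 1, 2 and 3, and untreated Nlrc4 averaged 29.2, 22.2 and 33.4 CPM, so both were lowest in batch 2 and highest in batch 3. Untreated Casp4 averaged 76.6, 74.7 and 107.6 CPM, and its fall in batch 3 thus began from the highest untreated level and ended at 67.0 CPM with mast cell and 72.5 CPM with trap supernatant. Untreated Naip2 averaged 82.7, 73.2 and 98.1 CPM, but untreated replicate 6 alone reached 112.3 CPM, and the call was lost in 8 of the 14 fits with 1 library left out, with the highest adjusted p (0.28) without that replicate. Without batch 3, Casp1 (-0.32; adjusted p = 0.0018) and Nlrc4 (-0.4; 0.0047) differed between untreated batches 2 and 1 and Casp4 (-0.04; 0.748) and Naip2 (-0.18; 0.0828) did not pass, in a fit that called 30.4% of all genes. Nlrp3 and Gsdme, whose responses differed between batches, did not pass in this comparison (adjusted p = 0.396 and 0.131), with untreated means of 150.9, 170.0 and 183.8 CPM for Nlrp3 and of 19.9, 20.9 and 24.2 CPM for Gsdme.

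A list of 55 other genes of the pathway was read alongside, of which 46 passed the filter on low counts. Il1a, the gene of interleukin-1 alpha, totalled 77 counts in the 14 libraries, at most 20 in any, too few for the fit of all libraries. The same held for Casp12, Gsdma, Gsdmc, Il33, Naip1, Nlrp12, Nlrp6 and Pjvk. Without batch 3 Il1a passed the filter, and edgeR called its response in batch 1 (log2 2.16 ± 0.53; adjusted p = 0.0126), from few counts. It was not called there for mast cell (1.64; 0.0955) or trap supernatant against untreated (1.63; 0.247). Trap supernatant against untreated gave 1 call of 46 (1.72% of all genes): Irf2, a transcription factor gene known to act on Gsdmd, was higher by log2 0.42 ± 0.09 (adjusted p = 0.0195). Mast cell supernatant gave 4 of 46 (4.79% of all genes). Irf2 (0.37 ± 0.08; adjusted p = 0.00906) and Pstpip1 (0.3 ± 0.07; 0.0252), whose product binds pyrin, rose, whereas Ciita, the class II transactivator of the same protein family as the sensors, fell by 0.84 ± 0.19 (0.0163) and Nek7, the kinase that NLRP3 needs to assemble, fell by 0.23 ± 0.06 (0.0391). Gsdmd itself differed by -0.09 ± 0.06 with mast cell supernatant and by -0.05 ± 0.07 with trap supernatant, neither passing (adjusted p = 0.44 and 0.855). Trap against mast cell supernatant gave 0 of 46 (5 at an unadjusted p under 0.05, beside 4.36% of all genes). Without batch 3, trap supernatant gave 0 calls of the 47 list genes tested (1.97% of all genes), with Irf2 at 0.4 (adjusted p = 0.0969). Mast cell supernatant gave 5 of 47 (6.95% of all genes): Ciita remained at -0.84 (0.0276), Il1b, Il1rn, Irf8 and P2rx7 were added, and Irf2 at 0.32 (0.0698), Pstpip1 at 0.13 (0.174) and Nek7 at -0.14 (0.195) no longer passed.

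The response differed between batches in 4 of the 46 genes (5.36% of all genes), Il1b (adjusted p = 0.00188), Irf1 (0.00337), Nod2 (0.00803) and Nfkb1 (0.0117). Il1b, the gene of the main cytokine that inflammasomes release, read 2.93 and 4.21 CPM in the untreated libraries of batch 1, 39.0 and 45.9 CPM there with mast cell supernatant and 25.7 CPM with trap supernatant. It rose 10.2-fold in batch 1 (log2 3.35 ± 0.29; adjusted p = 3.95e-05), with no overlap between the groups. In batch 2 it read 1.76 and 1.99 CPM untreated, 5.66 CPM with mast cell and 3.69 CPM with trap supernatant, and in batch 3 4.25 and 3.35 CPM untreated, 2.55 and 2.9 CPM with mast cell and 4.76 CPM with trap supernatant. The batch 3 values overlapped, and Il1b was not called in batch 2 or batch 3.

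Irf1, an interferon-induced transcription factor gene that acts on Casp1, Casp4 and guanylate-binding protein genes, had untreated means of 142.5, 124.9 and 190.7 CPM in batches 1, 2 and 3. With mast cell supernatant the values were 242.8, 103.6 and 69.1 CPM and with trap supernatant 317.0, 98.8 and 101.7 CPM. Like Casp4, it rose in batch 1 (0.91 ± 0.19; adjusted p = 0.0161) and fell in batch 3, by 1.25 ± 0.18 (adjusted p = 0.00257). In batch 1, 5 of the 46 genes were called (7.56% of all genes): Nod2, a sensor of bacterial cell wall peptides, rose with Il1b and Irf1 (0.83 ± 0.13; adjusted p = 0.000816), and Irf8 (-0.53 ± 0.13; 0.0301) and P2rx7, the ATP-gated channel that triggers NLRP3 (-0.47 ± 0.1; 0.00532), fell. With batch 3 left out of the fit, 9 of the 47 list genes tested were called in batch 1, where 12.1% of all genes were called. Irf8 no longer passed (adjusted p = 0.103) and the other 4 did. Added were Chmp4b, Il1a, Il1rn and Rela, all higher, and Nlrp10, lower. In batch 2 the only call among the 46 was Irf2 (0.57 ± 0.1; adjusted p = 0.00718; 1.19% of all genes). Without batch 3 in the fit, 3 of 47 were called in batch 2 (3.51% of all genes): Irf2 and Serpinb1a, higher, and Ciita, lower. The Serpinb1a difference of mean log2 CPM was 3.64 and 2.93 in batch 2 (mast cell and trap) and 3.22 with trap supernatant in batch 3. Those libraries had the highest mast cell marker sums, 726.0 to 1927.0 CPM. Elsewhere the Serpinb1a difference was 0.71 to 0.95, at sums of 80.8 to 276.6 CPM. Whether its RNA came from mast cells was not tested. In batch 3, 7 were called (8.41% of all genes): Pstpip1 (0.5 ± 0.09; adjusted p = 0.00141) and Irf2 (0.47 ± 0.09; 0.00344) rose, and besides Irf1 the falls were in Ciita (-0.95 ± 0.24; 0.022), Nfkb1, which encodes an NF-kappa B subunit (-0.66 ± 0.1; 0.000614), Ninj1, which ruptures the plasma membrane at the end of pyroptosis (-0.34 ± 0.07; 0.00565), and Nek7 (-0.3 ± 0.08; 0.037).

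**Figure D4:**
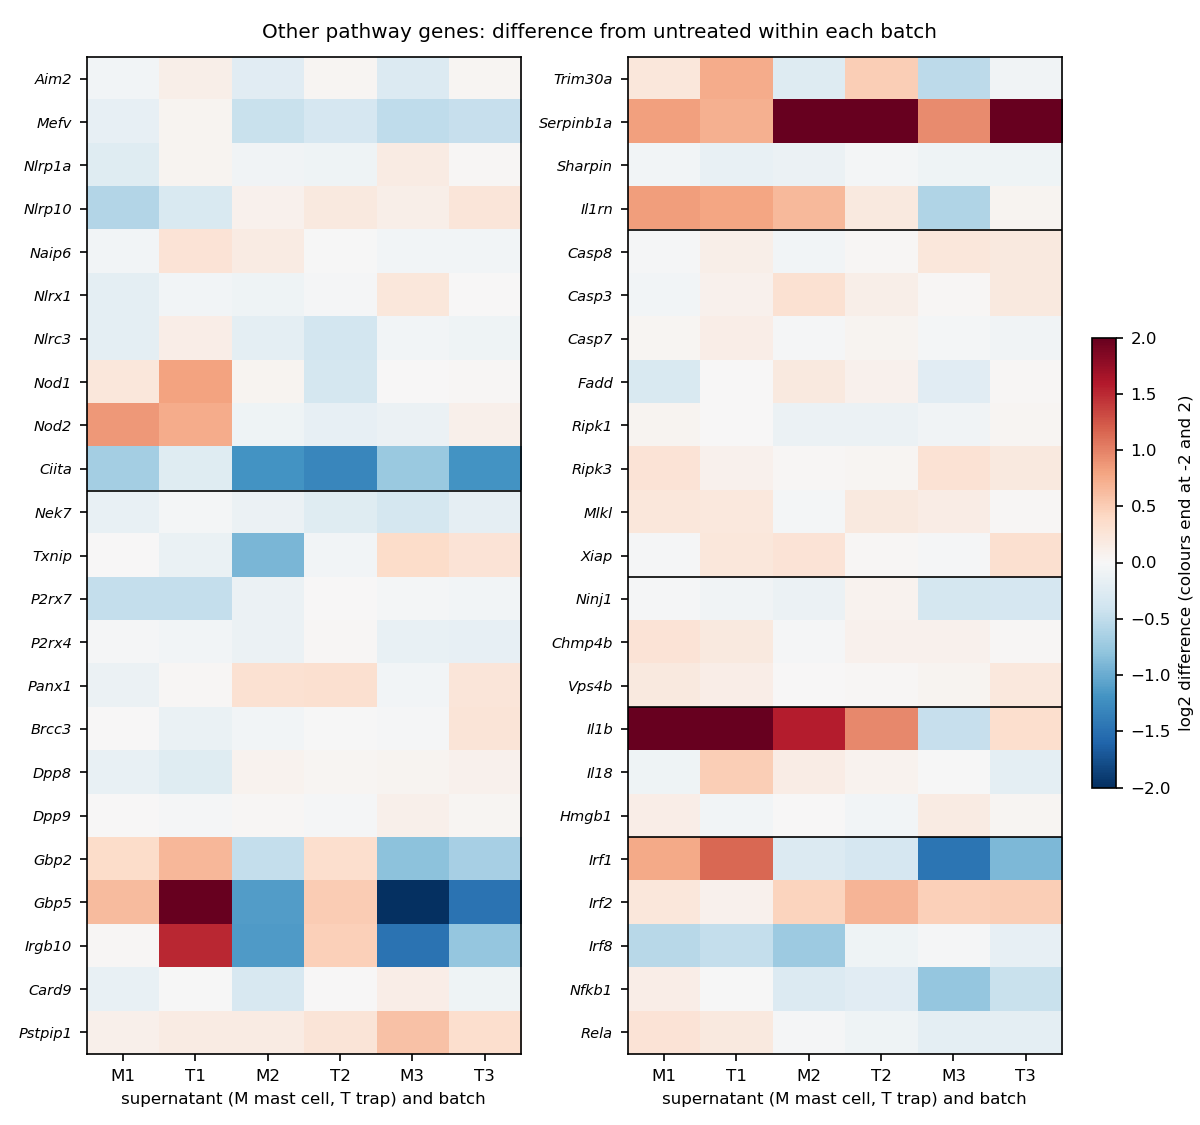
Difference from untreated in mean log2 CPM within each batch for the 46 other pathway genes tested, 1 row per gene and 1 column per supernatant and batch (M mast cell, T trap; colours end at -2 and 2); lines separate, in order, sensors, adaptors and regulators, caspases and death kinases, membrane rupture and repair, released signals, and transcription factors. Il1b is at the red end in both batch 1 columns, as are Serpinb1a in M2, T2 and T3 and Gbp5 in T1, and Irf1 turns from red in batch 1 to blue in batch 3. M2, T2 and T3 also had the highest mast cell marker sums (726.0 to 1927.0 CPM).

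For 3 further genes of the pathway that were followed throughout, no response and no difference between groups passed, although Il18 differed between the untreated libraries of batches 3 and 2 (log2 0.61 ± 0.23; adjusted p = 0.0485), as did 30.5% of all genes. With batch 3 left out of the fit, Aim2 differed between untreated batches 2 and 1 (log2 -0.33 ± 0.1; adjusted p = 0.0217), as did 30.4% of all genes. Il18, the gene of the other cytokine that caspase-1 matures, ranged from 3.71 to 7.27 CPM untreated with a median of 5.6, from 4.63 to 7.31 CPM with mast cell supernatant and from 4.75 to 7.11 CPM with trap supernatant. Aim2, the sensor of cytosolic DNA, ranged from 35.3 to 47.6 CPM untreated with a median of 43.5, from 32.1 to 47.5 CPM and from 38.7 to 51.2 CPM. Casp8, the apoptotic initiator that can also cut gasdermin D, ranged from 67.9 to 75.2 CPM untreated with a median of 70.2, from 67.0 to 81.8 CPM and from 73.8 to 78.8 CPM. The treated and untreated ranges overlapped for all 3, and none of them passed in the comparisons of groups, in a batch's response or in the difference of responses.

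Among themselves the members fell into different patterns once each batch's mean was taken off. Over the 14 libraries, Nlrp3 and Casp4 varied together (Pearson r = 0.78), as did Casp1 and Casp4 (0.77) and Nlrp1b and Naip5 (0.83), while Casp4 and Gsdme ran in opposite directions (-0.77). Of the 9760 genes that averaged 5 CPM or more, those most like Nlrp3 were Gdf15 (0.991), Pim3 (0.989) and Pim1 (0.987), those most like Casp4 were C3 (0.965), Acod1 (0.951) and Clec12a (0.95), and those most like Gsdme were Cep250 (0.952), Myo18a (0.944) and Nudcd2 (0.94). These are descriptions without a test. The points share their library, its depth and its scaling, and so many genes were searched that each member had a partner of at least 0.895, the value of Casp1 with Glipr1.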

How the data were processed

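The members and the pathway list were chosen by name, with earlier results of these data known. The authors deposited raw read counts per gene, 1 column per library and not normalised, counted by featureCounts 2.0.0 with genome build GRCm38, per the submitters' processing notes. No aligner, annotation release or strand setting is given in the sources used here. RNA was extracted with a Qiagen kit and libraries made with a stranded Illumina mRNA kit, per the labels' protocols. Reads carried no molecular identifiers. Of 47937 genes, 47224 received a symbol from GENCODE and RefSeq tables on GRCm38, and Irgb10 was found under its synonym Gm12250. Total counts of 11729073 to 22720419 per library gave each member at least 163 counts.

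From the counts, CPM and log2 values were computed (TMM scaling, prior count 1 for log2 CPM). In R 4.3.3, edgeR 4.0.16 kept 13061 genes by filterByExpr and fitted group and batch over all 14 libraries; responses by batch came from a model of batch, supernatant (either kind) and their product. Quasi-likelihood F tests were adjusted by Benjamini-Hochberg over all genes kept, with a threshold of 0.05. SEs are those implied by F. Intervals are 1.96 SE on either side, nominally 95% by the normal quantile. Alternatives were DESeq2 1.42.0, limma-voom (limma 3.58.1), upper-quartile scaling, other filters and prior counts, no batch term, a replicate block, and leaving out libraries or batches. The responses within batches, their differences and the fits of these without a batch were added after seeing the data. The tests were also run on simulated counts with known changes. That run cannot show whether libraries of the same batch are separate cultures, and no result here rests on it.

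All 10 members are named. Other pathway genes are named where they passed, up to 4 per direction and comparison, with Il1b, Il18, Il1a, Aim2, Casp8, Nek7 and Ninj1 as a panel; genes of like pattern are the 3 with the highest r. Replicates 1 to 3 carry batches 1 to 3 in every group. After removal of group means, the 9 same-numbered pairs correlated at 0.293 to 0.718 and other pairs at -0.556 to 0.168. The number is also the batch in these libraries, so this cannot tell a pairing of cultures from batch. The replicate block is thus the model with the batch term on these 9 libraries. The chi-square per degree of freedom between libraries of a group was 1.77 to 14.0 within a batch and 29.1 to 74.7 across batches. None was counted as a duplicate, but libraries of the same batch lay far closer. The p-values of responses by batch rest on the spread between libraries of the same batch. The Nlrp3 and Casp4 sequences shown were cut where a GENCODE exon of the gene begins within the window. Motif matches, also those of the background, were counted over all 250 bases of a window.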

Additional observations from a re-analysis of the deposited data

Results flagged for a closer look

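In 3 of the 10 genes the response to supernatant differed between batches by a test of the difference itself (edgeR, adjusted over all genes): Casp4 at an adjusted p of 0.000148, Nlrp3 at 0.00531 and Gsdme at 0.00726. The Nlrp3 response was 1.12, 0.14 and -0.39 on the log2 scale in batches 1, 2 and 3, that of Casp4 was 0.59, 0.07 and -0.64, and that of Gsdme was -0.13, 0.06 and 0.68.

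Of 20 combinations of a gene and a group checked for a library far from the others, 1 was found: untreated replicate 6, at 112.3 CPM of Naip2, lay above the other untreated libraries, which read 71.6 to 84.0 CPM. Chance gives about 1 in 20.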

How the results depend on the processing

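The 3 calls of a response that differed between batches, Casp4, Nlrp3 and Gsdme, held under every alternative run for that test, and 0 of the 10 members were called in the comparisons of groups under any. Limits are the 1 trap library per batch and the 2 treated libraries of batch 2. Genes called for trap supernatant numbered 409 with DESeq2, 15 without the batch term, 36 in the replicate block of 9 libraries, and 116 and 88 without batches 1 and 2. For mast cell supernatant they numbered 62 without the batch term, 84 in the block and 231 without batch 2. For trap against mast cell supernatant they numbered 11 with DESeq2 and 1 without batch 3. For responses by batch they numbered 1498 without the low-count filter, under which 7 members and 4919 of 23931 genes differed between untreated batches. Without batch 3, 1 member, Casp4, was called for batch 2 minus batch 1, with 235 genes called in place of 68. Genes called for the response within a batch numbered 1575 in batch 1 and 459 in batch 2 without batch 3, and 68 in batch 2 and 620 in batch 3 without batch 1. The block changed no call of a member.

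Log2 differences that turned sign, none of them called, were under trap supernatant Nlrp3 -0.08, Pycard 0.13 and Casp4 -0.23 without batch 1, Gsdmd 0.09 without batch 3 and Naip2 0.002 in the block. Under mast cell supernatant they were Nlrp3 -0.18 and Casp1 -0.04 without batch 1, Nlrc4 0.05, Pycard -0.17, Casp4 0.33 and Gsdme -0.1 without batch 3, Nlrc4 0.02 in the block and Casp4 0.01 without the batch term. For trap against mast cell supernatant they were Nlrp3 0.11, Gsdme -0.12 and Naip5 -0.02 without batch 1, Nlrp3 0.02, Nlrc4 0.05 and Gsdmd -0.05 without batch 2, Pycard 0.13 without batch 3, and Gsdme -0.01 with upper-quartile scaling, -0.04 without the batch term and -0.03 in the block. The Pycard response in batch 2 was 0.01 without batch 1 and without batch 3. The causes were not tested.

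With 1 library left out, genes called ran from 235 (without untreated replicate 1) to 1175 (without untreated replicate 3) for responses by batch, also leaving the range of 1.5 times at 242 and 1052 without untreated replicate 4 and trap replicate 3 and at 413 and 404 without mast cell supernatant replicates 4 and 5. They ran from 97 (without trap replicate 3) to 280 for trap supernatant, with 134, 131 and 137 without untreated replicates 2 and 5 and trap replicate 1. They ran from 0 to 3 for trap against mast cell supernatant (3 and 1 without trap and mast cell supernatant replicate 2) and from 2751 to 4826 between untreated batches (2891 and 2751 without untreated replicates 2 and 5). Signs turned within -0.02 to 0.05 for Casp1, -0.16 to 0.07 for Casp4, -0.13 to 0.02 for Nlrc4 and -0.01 to 0.16 for Pycard (mast cell supernatant), within -0.11 to 0.22 for Casp4, -0.13 to 0.05 for Gsdmd, -0.08 to 0.02 for Naip2 and -0.16 to 0.06 for Pycard (trap supernatant), and within -0.08 to 0.27 for Casp4, -0.03 to 0.14 for Gsdmd, -0.07 to 0.1 for Gsdme, -0.08 to 0.05 for Nlrc4 and -0.22 to 0.08 for Nlrp3 (trap against mast cell). The adjusted p of responses by batch ran from 0.122 to 0.967 for Naip2 and from 0.548 to 0.981 for Nlrp1b. Between untreated batches, Naip2 ran from 0.00152 to 0.28 and did not pass without untreated replicates 1, 2, 4, 5 or 6 or mast cell supernatant replicates 1, 4 or 5. Pycard ran from 0.0168 to 0.198 and passed without trap replicates 2 or 3 or mast cell supernatant replicates 1, 2 or 3, and Naip5 ran from 0.0363 (without untreated replicate 3) to 0.506.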

Other observations

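Among the 46 other pathway genes, the batch 3 response was lower than the batch 1 response in 6 and higher in 0 (edgeR, adjusted p under 0.05, where 8.67% of all genes were called, 797 lower and 335 higher). Besides Il1b (log2 -3.51 ± 0.45; adjusted p = 0.000552), Irf1 (-2.16 ± 0.26; 0.000944), Nod2 (-0.87 ± 0.19; 0.008) and Nfkb1 (-0.75 ± 0.14; 0.00311), they were Gbp2, a guanylate-binding protein gene induced by interferons (-1.22 ± 0.33; 0.045), and Rela, which encodes an NF-kappa B subunit (-0.45 ± 0.12; 0.0205). Nfkb1 and Rela fall outside the rule for naming and were chosen after their values were seen.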
